A study of Homo sapiens with 6 samples.

Results

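The genes described here encode 10 subunits of the SWI/SNF chromatin remodelling complexes, namely SMARCA2, SMARCA4, SMARCB1, SMARCC1, SMARCC2, ARID1A, ARID1B, ARID2, PBRM1 and BCL7A. They were chosen by gene symbol, out of 60640 gene identifiers in the expression tables. All 10 were found on 1 row each, and all 10 passed the filter on low values. RNA was measured by polyA RNA sequencing in MOLT-4, an established human line of T-cell acute lymphoblastic leukemia (T-ALL), grown in RPMI1640 with serum. The 3 wild type libraries came from the CRISPR control cells, and the 3 libraries labelled IK-KO came from MOLT-4 cells in which IKZF1, the gene for the DNA-binding protein IKAROS, was targeted with CRISPR-Cas. The comparison addressed which transcripts differ between MOLT-4 cells targeted at IKZF1 and their control. The labels name no clone, the study's methods describe the edited cells and their control as purchased, and the labels do not say whether the 3 libraries of a group came from separate cultures, so the p-values below measure the spread between these libraries, which may be technical.

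SWI/SNF complexes, also called BAF complexes, use ATP to slide or evict nucleosomes and so open DNA at promoters and enhancers. Each complex carries either SMARCA4 (BRG1) or SMARCA2 (BRM) as its ATPase, on a scaffold of SMARCC1 and, in most forms, SMARCC2, and its other subunits set its class, with ARID1A or ARID1B in canonical BAF (cBAF), ARID2 and PBRM1 in PBAF, and BRD9 in non-canonical BAF (ncBAF). In thymocytes SMARCA4 is required for normal T-cell development, and IKAROS is known to associate with SMARCA4-containing complexes.

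Levels are given as FPKM, that is fragments scaled by transcript length and by library size, a per-length scale on which genes can be set side by side. A change is the difference in mean log2(FPKM + 1), libraries labelled IK-KO minus wild type, and a gene was called when its Benjamini-Hochberg adjusted p from limma was under 0.05 over the 12652 genes with a mean of at least 1 FPKM. IKZF1 itself was measured at 134.2, 124.0 and 104.5 FPKM in wild type, against 206.7, 259.6 and 207.4 FPKM in the IK-KO-labelled libraries (log2 change 0.89, SE 0.12, adjusted p = 0.00295). The RNA of the targeted gene was therefore higher, not lower, under the IK-KO label, and gene-level FPKM does not show whether the coding sequence was intact. The study's methods state that loss of IKAROS was checked by PCR and western blot, which were not analysed here. All 8 T-cell markers examined were detected and summed to 1240 to 1310 FPKM in wild type and 1300 to 1460 FPKM in the IK-KO-labelled libraries. CD3D, CD3E and LCK were the most abundant of the 8 and made up most of each sum. CD3G rose (log2 change 0.65), and CD2 (−3.35, from 61.52 to 5.14 FPKM), CD7 (−1.72) and CD5 (−1.06) fell. Each of them was called under all 15 alternative settings of the fit. CD3D (0.44) and PTCRA (0.69) also rose, but were called under only 6 of 15 and 5 of 14 alternatives. CD3E and LCK were not called. The 18 markers of B, myeloid, erythroid, natural killer, epithelial and fibroblast cells reached at most 1.83 FPKM (CD79A), with HBB, NCR1 and EPCAM listed at 0 in every library and sums of 2.06 to 2.83 FPKM in wild type and 1.25 to 1.47 FPKM under the IK-KO label. Depth relative to the other libraries was estimated indirectly, from the confidence bounds given with the FPKM of genes with 1 transcript. The estimate was 0.905 to 1.05 in wild type and 0.922 to 1.09 in the IK-KO-labelled libraries, and the absolute depth is unknown.

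The promoters of the 3 members with the most stable calls are printed to show the sequence around a start site and whether it holds the core letters of the IKAROS motif, GGGAA. Each window runs 5′ to 3′ from 250 bases before to 50 after a RefSeq start site (GRCh38.p14), and capitals mark GGGAA or, on the other strand, TTCCC. The windows lie at chr9:2015097-2015396 (+ strand), chr19:10960780-10961079 (+ strand) and chr22:23786716-23787015 (+ strand).
SMARCA2: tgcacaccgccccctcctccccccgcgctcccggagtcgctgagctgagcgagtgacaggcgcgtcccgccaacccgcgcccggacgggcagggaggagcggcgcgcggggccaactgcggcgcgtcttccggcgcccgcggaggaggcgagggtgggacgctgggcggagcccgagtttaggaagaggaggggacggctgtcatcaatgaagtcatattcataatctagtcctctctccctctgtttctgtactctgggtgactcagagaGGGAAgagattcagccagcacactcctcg
SMARCA4: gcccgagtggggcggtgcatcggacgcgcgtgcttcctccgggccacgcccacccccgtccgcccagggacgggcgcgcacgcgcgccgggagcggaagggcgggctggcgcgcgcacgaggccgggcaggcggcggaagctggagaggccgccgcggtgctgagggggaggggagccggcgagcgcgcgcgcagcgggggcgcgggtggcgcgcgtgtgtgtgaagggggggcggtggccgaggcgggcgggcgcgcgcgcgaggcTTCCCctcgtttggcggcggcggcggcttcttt
SMARCB1: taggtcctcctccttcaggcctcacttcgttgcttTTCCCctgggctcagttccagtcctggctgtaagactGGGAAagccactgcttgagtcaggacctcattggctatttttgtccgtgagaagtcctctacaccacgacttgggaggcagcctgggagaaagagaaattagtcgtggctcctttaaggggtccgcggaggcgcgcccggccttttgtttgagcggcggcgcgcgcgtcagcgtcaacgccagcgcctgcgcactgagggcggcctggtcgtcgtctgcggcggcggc

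With the start site counted as base 1, the motif began at base 22 in the SMARCA2 window and at base 18 in the SMARCA4 window. In the SMARCB1 window it began at bases −215 and −178, before the start. Of the members, 7 had promoters in the RefSeq table, with 13 windows in all, and 8 windows from 4 members (SMARCA2, SMARCA4, SMARCB1 and ARID1B) held the motif. Such matches are common, since 65.0% of all 35116 promoters of this length in the table held the same letters on either strand, and they describe sequence and not binding. SMARCA2 had 4 start sites in the table, at 2015347, 2021945, 2157662 and 2158464 on chromosome 9. All 4 lie inside the annotated gene, which begins at 1980290, so the printed window is not at its outer end. Gene-level FPKM does not separate transcripts that begin at different sites.

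Among the members, 5 of 10 were called, against 19.9% of all tested genes. SMARCA4, SMARCB1, SMARCC2 and BCL7A rose (4 of 10, against 10.1% of all tested genes called higher), and SMARCA2 fell (1 of 10, against 9.75% called lower). With the replicate number as a block, 3 of 10 were called, against 14.3% of all tested genes, since SMARCC2 (log2 change 0.23, adjusted p = 0.0792) and BCL7A (0.24, adjusted p = 0.0549) missed the threshold at the same size of change. The groups did not overlap in FPKM for 7 of the 10 members, against 39.0% of all tested genes. The median change was 0.18 over the 10 members and 0.02 over all tested genes, and 9 of the 10 point estimates were above 0, against 52.7% of all tested genes. These 9 include ARID1B and PBRM1, whose sign turned under 5 and 2 of the 15 alternative settings. The rises were small, with none above 0.36 on the log2 scale, while the fall of SMARCA2 was 1.34 on the same scale. In bulk RNA, fewer cells that express a gene and less RNA of it per cell cannot be told apart.

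**Figure D1:**
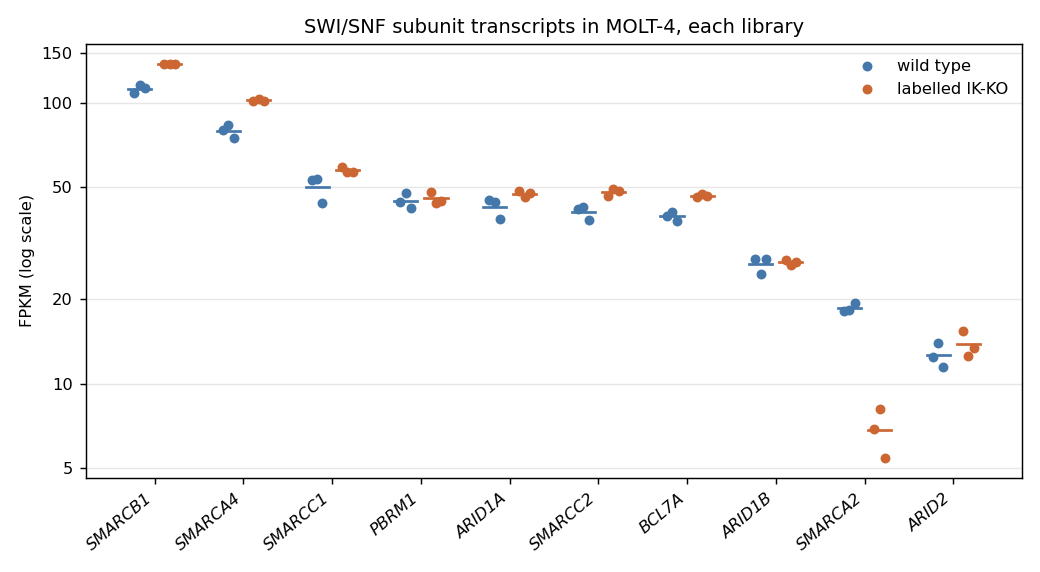
FPKM (log scale) of the 10 subunits in each of the 3 wild type libraries and the 3 libraries labelled IK-KO, ordered by the wild type mean; points are libraries and bars are group means. SMARCA2 is the only member below its wild type range in all 3 libraries labelled IK-KO, and ARID1B, ARID2 and PBRM1 overlap between groups.

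The ATPases moved in opposite directions. SMARCA2 (ENSG00000080503.24, hg38 chr9:1980290-2193624, + strand), the ATPase with the less abundant transcript here, was at 18.07, 18.33 and 19.31 FPKM in wild type, against 6.88, 8.12 and 5.44 FPKM in the IK-KO-labelled libraries. Every library labelled IK-KO lay far below every wild type library. The mean fell by 63.3%, from 18.57 ± 0.653 to 6.81 ± 1.34 FPKM (SD, n = 3 in each group). The log2 change was −1.34 (SE 0.13, 95% interval −1.64 to −1.03, adjusted p = 0.000715). The tables carry confidence bounds for each FPKM, which cover counting and assignment error only. These were wide for SMARCA2, between 20.2% and 59.3% of the value on either side, yet the lowest wild type bound, 14.3 FPKM, stayed above the highest IK-KO bound, 12.9 FPKM. The gene was called under all 15 alternative settings, with changes from −1.46 to −1.04.

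SMARCA4 (ENSG00000127616.18, chr19:10960825-11079426, + strand), the SWI/SNF ATPase with the more abundant transcript here, was at 79.6, 83.29 and 74.79 FPKM in wild type, against 101.7, 103.3 and 101.5 FPKM in the IK-KO-labelled libraries. The IK-KO values lay within 2 FPKM of each other and above all 3 wild type values. The mean was 28.9% higher (79.23 ± 4.26 to 102.2 ± 0.993 FPKM), a log2 change of 0.36 (SE 0.05, 95% interval 0.24 to 0.49, adjusted p = 0.00407). It was called under all 15 alternatives, with changes from 0.32 to 0.41. Its confidence bounds were narrow (3.21% to 3.96%), and those of the 2 groups did not meet, with a highest wild type bound of 86.2 FPKM and a lowest IK-KO bound of 98.0 FPKM.

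Since both ATPases occupy the same position in the complex, their levels were also set against each other within each library. SMARCA2 made up 18.5%, 18.0% and 20.5% of the summed SMARCA2 and SMARCA4 FPKM in wild type and 6.33%, 7.29% and 5.09% in the IK-KO-labelled libraries. The share went from 19.0 ± 1.32% to 6.24 ± 1.1%, a difference of −12.8 percentage points, with no overlap between groups. The exact two-sided permutation test on the log2 ratio gave p = 0.1, the smallest that 3 against 3 libraries allow, and 0.25 after adjustment over the 5 ratios computed. The summed FPKM of both ATPases was 94.1 to 101.6 in wild type and 106.9 to 111.4 in the IK-KO-labelled libraries, so the sum of the ATPase transcripts was not lower while SMARCA2 fell. These are transcript levels, and the protein composition of the complexes was not measured here.

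**Figure D2:**
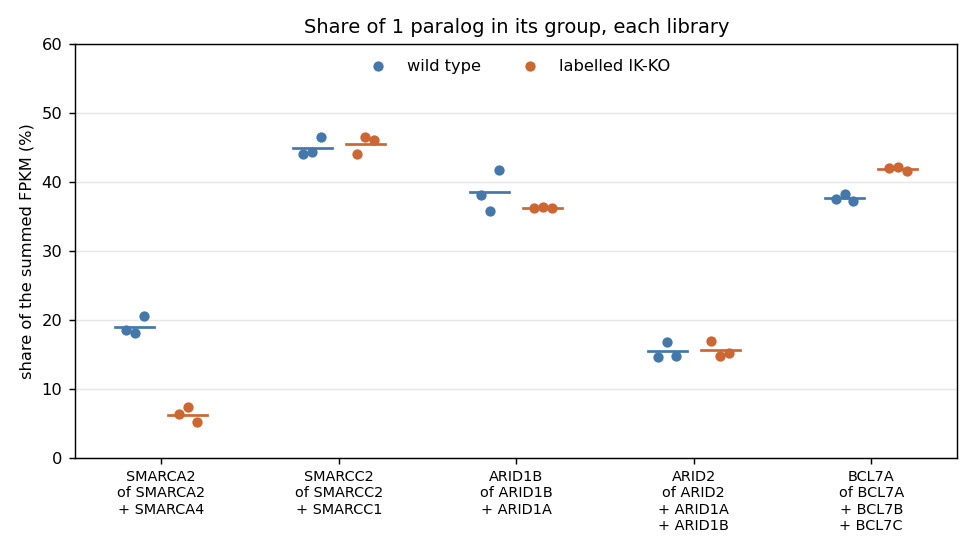
Share (%) of 1 paralog in the summed FPKM of its paralog group in each library, for 5 groups; points are libraries and bars are group means. The SMARCA2 share lies between 18.0% and 20.5% in wild type and between 5.09% and 7.29% in the IK-KO-labelled libraries, and the BCL7A share is the other that does not overlap between groups.

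SMARCB1 (SNF5; ENSG00000099956.19, chr22:23786931-23838008, + strand), a core subunit that contacts the nucleosome and is lost in rhabdoid tumours, had the highest level of the members in both groups. It was at 107.8, 115.6 and 112.5 FPKM in wild type, against 137.3, 136.8 and 137.6 FPKM in the IK-KO-labelled libraries. The 3 IK-KO values were almost the same and stood above all wild type values. The mean was 22.6% higher (111.9 ± 3.94 to 137.2 ± 0.41 FPKM), a log2 change of 0.29 (SE 0.04, 95% interval 0.19 to 0.40, adjusted p = 0.00496). It was called under all 15 alternatives (0.26 to 0.34). The confidence bounds of single libraries did overlap between groups, up to 135 FPKM in wild type and from 117 FPKM under the IK-KO label. DERL3 on the opposite strand overlaps its locus and was at 3.19 FPKM in wild type and 2.84 FPKM in the IK-KO-labelled libraries.

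The scaffold paralogs SMARCC1 and SMARCC2, which dimerize early in assembly, had similar point estimates, and SMARCC2 alone passed the threshold. SMARCC1 (BAF155; ENSG00000173473.11, chr3:47585269-47782106, − strand) was at 53.01, 53.58 and 43.91 FPKM in wild type, against 59.0, 56.85 and 56.55 FPKM in the IK-KO-labelled libraries. The groups did not overlap, and wild type replicate 3 stood apart from the other wild type values. The change of 0.20 (SE 0.08, 95% interval 0.00 to 0.39) missed the threshold with an adjusted p of 0.145, and it was called under none of the 15 alternatives. Without wild type replicate 3 it was 0.11.

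SMARCC2 (BAF170; ENSG00000139613.12, chr12:56162359-56189567, − strand) was at 41.77, 42.59 and 38.14 FPKM in wild type, against 46.43, 49.38 and 48.41 FPKM in the IK-KO-labelled libraries. All IK-KO values were above all wild type values, and the mean was 17.7% higher (40.83 ± 2.37 to 48.07 ± 1.5 FPKM). The log2 change was 0.23 (SE 0.06, 95% interval 0.09 to 0.38, adjusted p = 0.0395). This call was held under 5 of 15 alternatives, and adjusted p ranged from 0.0226 to 0.114. It was lost whichever library was left out (adjusted p from 0.058 to 0.114). MYL6, on the opposite strand, overlaps the locus by 1138 bases and was far more abundant (886 and 986 FPKM, log2 change 0.16, adjusted p = 0.121). Whether the reads were counted by strand is not given in the sources used here, so reads of the overlap cannot be assigned with certainty. The SMARCC2 share of both scaffold paralogs was 44.9 ± 1.33% in wild type and 45.5 ± 1.32% in the IK-KO-labelled libraries (exact permutation p = 1.0, adjusted 1.0).

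The large ARID subunits of cBAF, which bind DNA with little sequence preference and which are often mutated in cancers, were not called. ARID1A (BAF250A; ENSG00000117713.20, chr1:26693236-26782104, + strand) was at 45.05, 44.36 and 38.68 FPKM in wild type, against 48.38, 46.24 and 47.83 FPKM in the IK-KO-labelled libraries. The groups did not overlap, with wild type replicate 3 again the lowest value. The change was 0.15 (SE 0.07, 95% interval −0.01 to 0.32, adjusted p = 0.182), so the interval leaves room for a rise of the size seen in SMARCB1. Without wild type replicate 3 the change was 0.08.

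ARID1B (BAF250B; ENSG00000049618.23, chr6:156776020-157210779, + strand) was at 27.75, 24.65 and 27.71 FPKM in wild type, against 27.5, 26.41 and 27.14 FPKM in the IK-KO-labelled libraries. The groups overlapped, and the change was 0.02 (SE 0.07, 95% interval −0.14 to 0.18, adjusted p = 0.884). Its sign turned under 5 of 15 alternatives and no direction is given for it. The 40 nearest tested genes were taken by order along the chromosome, 20 on each side except near a chromosome end. Of those of ARID1B on chromosome 6 only 8 were lower in the IK-KO-labelled libraries, and their median change was 0.20. Measured against these neighbours, ARID1B was at −0.21 (adjusted p = 0.0764). ZDHHC14, a palmitoyltransferase gene 0.17 Mb beyond ARID1B, rose from 1.85 ± 0.311 to 8.08 ± 2.12 FPKM (log2 change 1.65, adjusted p = 0.00134). The others among the 2 nearest tested genes on each side, TIAM2 (−0.53), TFB1M (0.08) and TMEM242 (0.29), were not called. The ARID1B share of both ARID1 paralogs was 38.5 ± 3.03% in wild type and 36.3 ± 0.079% in the IK-KO-labelled libraries (exact permutation p = 0.4, adjusted 0.625). The difference of −2.26 percentage points was −0.649 without wild type replicate 3 and −3.66 without wild type replicate 2.

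The subunits that define PBAF were not called either. ARID2 (BAF200; ENSG00000189079.17, chr12:45729706-45908040, + strand) had the lowest level of the members in wild type, at 12.46, 13.94 and 11.49 FPKM, against 15.45, 12.59 and 13.43 FPKM in the IK-KO-labelled libraries. The ranges overlapped, and the change was 0.12 (SE 0.10, 95% interval −0.13 to 0.37, adjusted p = 0.473). It was 0.04 without IK-KO replicate 1, 0.06 without wild type replicate 3, 0.18 without IK-KO replicate 2 and 0.19 without wild type replicate 2. PBRM1 (BAF180; ENSG00000163939.18, chr3:52545352-52685917, − strand), which reads acetylated histones with a row of bromodomains, was at 44.16, 47.76 and 42.04 FPKM in wild type, against 48.23, 43.96 and 44.64 FPKM in the IK-KO-labelled libraries. These ranges overlapped as well, with a change of 0.03 (SE 0.07, 95% interval −0.13 to 0.19, adjusted p = 0.80). GNL3 (98.7 and 110 FPKM) and SMIM4 (8.22 and 9.77 FPKM) lie over PBRM1 on the opposite strand, and neither was called. ARID2 made up 15.4 ± 1.23% of the 3 ARID transcripts in wild type and 15.6 ± 1.14% in the IK-KO-labelled libraries (exact permutation p = 0.5, adjusted 0.625).

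BCL7A (ENSG00000110987.8, chr12:122019422-122062044, + strand), a small subunit of the ATPase module that was first found at a lymphoma translocation, was at 39.51, 40.77 and 37.82 FPKM in wild type, against 46.27, 47.23 and 46.48 FPKM in the IK-KO-labelled libraries. The groups were well apart for the spread within them, and the mean was 18.5% higher (39.37 ± 1.48 to 46.66 ± 0.503 FPKM). The log2 change was 0.24 (SE 0.05, 95% interval 0.12 to 0.36, adjusted p = 0.0194), and 9 of 15 alternatives called it (adjusted p from 0.0121 to 0.0637). It was lost without wild type replicate 1 (adjusted p = 0.0564) and without IK-KO replicate 1 (0.0556), 2 (0.0637) or 3 (0.055). Within its paralog group BCL7A made up 37.5%, 38.3% and 37.2% of the BCL7A, BCL7B and BCL7C FPKM in wild type and 42.0%, 42.2% and 41.6% in the IK-KO-labelled libraries. The difference of 4.29 percentage points had an exact permutation p of 0.1, the smallest possible, and 0.25 after adjustment.

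In wild type the order of levels ran from SMARCB1 (112 FPKM) and SMARCA4 (79.2) through SMARCC1 (50.2), PBRM1 (44.7), ARID1A (42.7), SMARCC2 (40.8) and BCL7A (39.4) to ARID1B (26.7), SMARCA2 (18.6) and ARID2 (12.6). Each neighbouring pair from SMARCC1 to BCL7A in this order overlapped in range, and the other neighbouring pairs did not. In the libraries labelled IK-KO the order was SMARCB1 (137 FPKM), SMARCA4 (102), SMARCC1 (57.5), SMARCC2 (48.1), ARID1A (47.5), BCL7A (46.7), PBRM1 (45.6), ARID1B (27.0), ARID2 (13.8) and SMARCA2 (6.81). Here the neighbours from SMARCC2 to PBRM1 overlapped. The places of SMARCA2 and ARID2 at the low end were thus exchanged, with ranges apart in both groups. Wild type replicate 3 held the lowest wild type value for 7 of 10 members and for 54.9% of all tested genes. Without it the change was 0.32 for SMARCA4, 0.30 for SMARCB1 and −1.31 for SMARCA2, all still called.

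Of 21 other SWI/SNF subunits, 20 were tested and 4 were called (against 19.9% of all tested genes), 2 in each direction, with a median change of 0.01. ACTL6B, a neuronal subunit, was listed at 0 in every library. SMARCD1, a core subunit, rose from 68.43 ± 3.65 to 80.84 ± 1.89 FPKM (log2 change 0.24, adjusted p = 0.0234). BRD9, the bromodomain subunit of ncBAF, rose from 29.53 ± 0.977 to 35.0 ± 1.19 FPKM (0.24, adjusted p = 0.0276). SMARCD3, a paralog of SMARCD1, fell from 6.55 ± 0.907 to 3.61 ± 0.688 FPKM (−0.71, adjusted p = 0.0161), the largest change of this list. SS18, which sits on the ATPase module and is fused in synovial sarcoma, fell from 17.99 ± 2.02 to 13.54 ± 0.718 FPKM (−0.38, adjusted p = 0.0317). Each of these 4 calls was held under 8 or 9 of 15 alternatives, and with the replicate number as a block 1 of 20 was called.

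**Figure D3:**
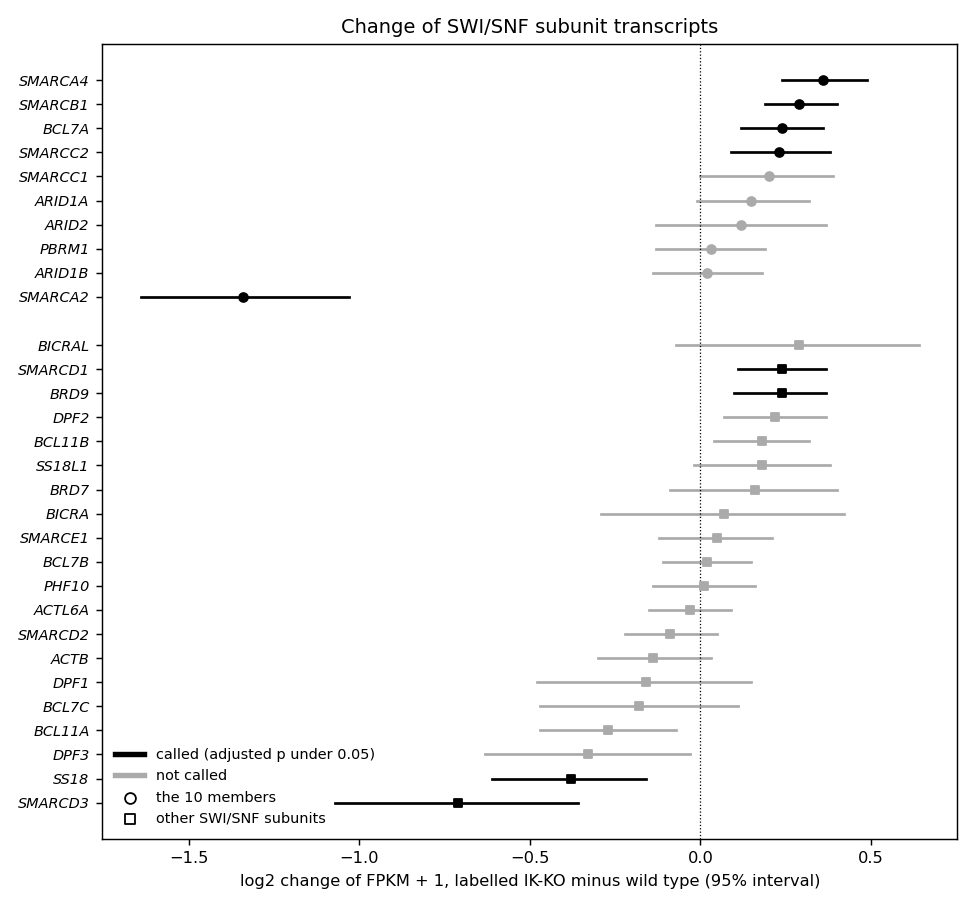
Change in mean log2(FPKM + 1), libraries labelled IK-KO minus wild type, with 95% interval, for the 10 members (circles) and the 20 other tested SWI/SNF subunits (squares); black marks adjusted p under 0.05 and grey the rest. SMARCA2 at −1.34 has the lowest point estimate of all these subunits, and SMARCD3 at −0.71 has the next lowest. Their intervals, −1.64 to −1.03 and −1.07 to −0.36, overlap.

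The ATPases of other remodelling families were examined in the same fit. Of 19 listed, 17 were tested (SMARCA1 and CHD5 were under the filter) and 6 were called (35.3%, against 19.9% of all tested genes), 2 higher and 4 lower. CHD4, the main ATPase of the NuRD complex in which IKAROS is also found, rose from 109.7 ± 1.65 to 137.2 ± 8.25 FPKM (0.32, adjusted p = 0.00753), and its paralog CHD3 fell from 20.75 ± 1.02 to 12.48 ± 0.877 FPKM (−0.69, adjusted p = 0.00135). CHD9 fell from 7.69 ± 0.451 to 2.65 ± 0.0657 FPKM (−1.25, adjusted p = 0.000292), a change close in size to that of SMARCA2. These 3 were called under all 15 alternatives. CHD2 rose (0.52, adjusted p = 0.0362), and HELLS (−0.42, adjusted p = 0.0402) and SMARCAL1 (−0.28, adjusted p = 0.0331) fell, each held under 8 or 9 of 15 alternatives.

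SMARCA2 lies on chromosome 9, with 415 of 469 tested genes lower under the IK-KO label and a median change of −0.35. Of these 469 genes, 229 were called, against 19.9% of all tested genes. SMARCA2 is near the chromosome end, so of its 40 nearest tested genes 4 lay before it and the rest after it. These genes, over 19.4 Mb, had a median change of −0.29. Of these, 34 were lower and 14 were called, 12 lower and 2 higher. With the neighbours' median taken out in each library, the change of SMARCA2 was −1.04 (adjusted p = 0.00425). The 2 nearest tested genes on each side differed among themselves. DOCK8, a guanine nucleotide exchange factor of lymphocytes, was at 14.72, 15.32 and 12.88 FPKM in wild type and was listed at 0 in all 3 libraries labelled IK-KO (adjusted p = 7.79e-06). VLDLR, the lipoprotein receptor gene 0.428 Mb beyond SMARCA2, rose from 7.69 ± 1.29 to 12.95 ± 1.55 FPKM (0.69, adjusted p = 0.0122). KANK1 (−0.38, adjusted p = 0.102) and VLDLR-AS1 (0.41, adjusted p = 0.117) were not called. Apart from DOCK8, the neighbours below SMARCA2 in change were PTPRD (−1.53, called) and RN7SL5P (−3.41, not called). The part that the shift of chromosome 9 has in the change of SMARCA2 was not tested beyond these values. Chromosome 6, with ARID1B, went the other way, with 167 of 655 tested genes lower, 233 called and a median change of 0.21. The labels set only the edited cells against their control, so the IKZF1 edit and any other difference between these cells cannot be told apart. Which of them the shifts of these chromosomes, or the changes of the members, came with was not tested.

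**Figure D4:**
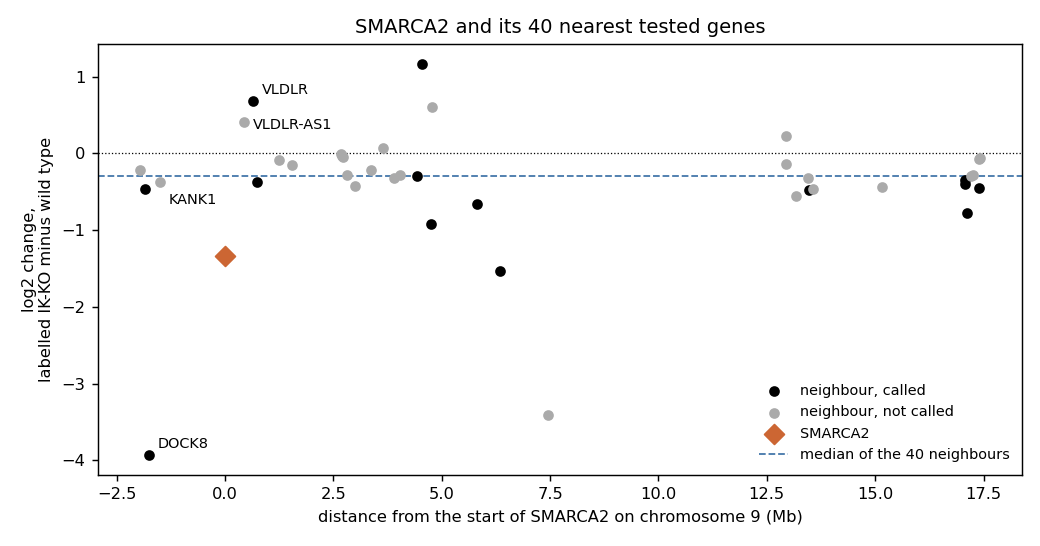
Change in mean log2(FPKM + 1), libraries labelled IK-KO minus wild type, of SMARCA2 (diamond) and its 40 nearest tested genes against distance (Mb) from the start of SMARCA2 on chromosome 9; black points are called and the dashed line is the neighbours' median, −0.29. SMARCA2 at −1.34 lies below all but 3 of the 40 neighbours, and the genes next to it lie on both sides of 0.

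The 40 nearest tested genes of the other called members were closer to 0. Their median change was 0.01 around SMARCA4, −0.04 around SMARCB1, 0.12 around SMARCC2 and 0.10 around BCL7A. Against these neighbours SMARCA4 (0.41, adjusted p = 0.00218) and SMARCB1 (0.34, adjusted p = 0.00269) were still called, whereas SMARCC2 (0.14, adjusted p = 0.10) and BCL7A (0.15, adjusted p = 0.0555) were not.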

How the data were processed

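RNA was sequenced from 6 MOLT-4 libraries, 3 wild type and 3 labelled IK-KO. The authors deposited 1 table per library with gene-level FPKM and its confidence bounds. The submitters' processing notes name STAR 2.6.1c, Cufflinks 2.2.1, HOMER 4.10 and hg38, without roles. The annotation and the strand setting are not given in the sources used here. All 49727 gene identifiers found with their version in GENCODE 44 had the same position on GRCh38. FPKM hold no counts, so no count model was used, and paralogs or overlapping genes can share reads. FPKM were transformed to log2(FPKM + 1), genes with a mean of at least 1 FPKM were kept (12652), and groups were compared with limma 3.58.1 in R 4.3.3 (moderated test with trend, two-sided) with Benjamini-Hochberg adjustment. Of all identifiers, 110 stood on more than 1 row and 29 were not estimated in at least 1 library. Paralog ratios were compared by an exact permutation test (scipy 1.17.1). The limma fit was checked on simulated data, and the permutation test was not.

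The members, the lists of other subunits and ATPases, and the markers were chosen with earlier results of these data known. All members were named, with every called gene of the other lists and the largest change in each, the 2 nearest tested genes on each side of SMARCA2 and ARID1B, IKZF1, the markers and genes over a member's locus. PTPRD, RN7SL5P and the genes listed at 0 or under the filter were named after their values were seen. The main comparison has no block. Deviations from the group means correlated at r = 0.0669, 0.0248 and 0.00546 between same-numbered libraries. Between differently numbered libraries of the 2 groups, r ranged from −0.0878 to 0.0599. Alternatives were pseudocount, filter, scaling, variance prior, block, neighbouring genes removed and leaving out each library, plus median-ratio scaling without chromosomes 6 and 9, which was chosen after seeing the data.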

Additional observations from a re-analysis of the deposited data

How the results depend on the processing

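Of 150 member changes under alternatives (10 members, 15 alternatives), 127 kept their direction and their side of the threshold, 16 kept their direction and lost the call, and 7 turned sign. SMARCA2, SMARCA4 and SMARCB1 stayed called throughout, and the cause of the other shifts was not tested. The number of members called was 3 with the neighbours' median removed, 3 with the replicate block and 3 to 4 without each library in turn (3 without any IK-KO library or wild type replicate 1). The samples share only a replicate number, and the replicate block lowered the calls over all tested genes from 2515 to 1805. Of all tested genes, 19.9% were called in the main fit and 18.1% with the neighbours' median removed. Without each library in turn this share was 13.4% to 15.8%. It was 17.7% with eBayes without trend, 22.5% with a mean FPKM of at least 5 and 7.37% of 27286 genes with no filter. Median-ratio scaling called 2795 genes, and that scaling without chromosomes 6 and 9 called 2785. The number of other SWI/SNF subunits called by limma was 2 with eBayes without trend, 2 with no filter on low values, 1 with the replicate block and 0 to 3 without each library in turn; the 0 came without IK-KO replicate 2, where 6 of 20 had an unadjusted p under 0.05. It was 1 without IK-KO replicate 1 or wild type replicate 2, and 2 without IK-KO replicate 3 or wild type replicate 1. The same number went up from 4 to 5 with a mean FPKM of at least 5 and with each median-ratio scaling. With the neighbours' median removed it was 6. The number of other remodelling ATPases called was 3 to 4 without each library in turn (3 without IK-KO replicate 1, IK-KO replicate 2 or wild type replicate 2). It was 4 with eBayes without trend or no filter on low values and 5 with the replicate block. With each median-ratio scaling and with the neighbours' median removed it was 7, against 6 in the main fit. The change of ARID1B turned to −0.00 with median-ratio scaling, −0.01 with that scaling without chromosomes 6 and 9, −0.21 with the neighbours' median removed and −0.01 with scaling without mitochondrial transcripts, and ranged from −0.04 to 0.05 without each library in turn. The change of PBRM1 ranged from −0.01 to 0.08 without each library in turn. The difference in the ARID2 share, 0.232 percentage points, became 1.96 and −1.70 with the genes at opposite confidence bounds and −0.413 to 0.939 without each library in turn. Median-ratio scaling moved the median change of all genes from 0.017 to −0.004. With 3 libraries a group and no counts, small changes such as those of SMARCC1, ARID1A and ARID2 were not separated from 0.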
